A study of Mus musculus with 6 samples.

Results

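Oxidative phosphorylation is the set of enzymes in the inner mitochondrial membrane by which a cell turns electrons from food into ATP. The nuclear genes of its 5 complexes and of cytochrome c were followed here in mouse aortic arches. They were the genes whose mouse symbol begins with Nduf followed by a, b, c, s or v and a digit, Sdha to Sdhd, symbols beginning with Uqcr, Cyc1, Cycs, Cox4 to Cox8 subunit genes, and symbols beginning with Atp5. Pseudogenes and the muscle and brown fat isoforms Cox7a1 and Cox8b were left out by the same rule. Of the 14298 genes in the deposited values, 82 met it: 38 of complex I, 4 of complex II, 9 of complex III, 1 for cytochrome c, 13 of complex IV and 17 of complex V. A further 6 genes of the annotation that meet the rule (Cox6a2, Cox6c2, Cox7b2, Cox8c, Ndufa11b and Ndufs6b) were not analysed here.

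The study sequenced polyA RNA from aortic arches of adult C57/BL6 mice, 3 libraries per genotype. Knockout mice were ApoE-/-, RBPJflox/flox and carried Cdh5-CreERT, a tamoxifen-dependent recombinase under the promoter of an endothelial cadherin. Control mice were ApoE-/- and RBPJflox/flox without the recombinase, so the presence of Cre and the deletion cannot be told apart. All animals lacked apolipoprotein E, received tamoxifen for 1 week at 8 weeks of age and then ate a high fat diet for 6 weeks. The deletion is directed at endothelial cells while the RNA comes from the arch tissue, and in such bulk RNA fewer cells of a type and less RNA per cell cannot be told apart. The labels do not say how many animals a library holds, so p-values measure only the spread between these libraries.

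Complex I takes electrons from NADH and complex II takes them from succinate, complex III passes them to cytochrome c, and complex IV gives them to oxygen. Complexes I, III and IV pump protons, and complex V, the ATP synthase, lets the protons back to make ATP. Most subunits are encoded in the nucleus and a small core in mitochondrial DNA, so a working chain needs both genomes. Arterial smooth muscle relies on glycolysis as well as respiration, while brown fat and heart muscle are dense in mitochondria.

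Depth over the listed genes was 6713700 reads in S595, 10072495 in S598 and 6181341 in S599 (knockout), and 5904504 in S591, 7572040 in S592 and 7855001 in S594 (control). Triplets of values below follow that order in each group. Values are CPM, read counts divided by a scaled library size. Rbpj itself, the floxed gene, had 169, 197 and 212 CPM in knockout arches, against 174, 191 and 200.4 CPM in control arches, with a log2 fold change of 0.03 (adjusted p = 0.923, limma); the groups overlapped, so RNA of the whole tissue does not check the deletion in endothelial cells. The tissue label was checked against markers: 10 of 10 smooth muscle genes and 12 of 12 endothelial genes were listed. Summed smooth muscle markers ranged from 23253 to 31698 CPM in knockout arches and from 13097 to 22955 CPM in control arches, while summed endothelial markers ranged from 761 to 1168 CPM in knockout arches and from 925 to 938 CPM in control arches. Control library S591 stood apart from the other 5 for the genes described here, and results are therefore given with it and without it.

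No oxidative phosphorylation gene passed the test for a difference between knockout and control arches. With limma and Benjamini-Hochberg adjustment over all genes, 0 of 82 had an adjusted p under 0.05, where 0.0210% of all genes (3 of 14298) did. At an unadjusted p under 0.05, 0 of 82 were lower in knockout arches, against 12.0% of all genes, and 0 of 82 were higher, against 8.04%. None of the 82 had all 3 knockout libraries below all 3 controls, as 14.2% of all genes did, or above them, as 11.3% did. The quasi-likelihood test of edgeR, DESeq2 and limma-voom, run on whole reads recovered from the values, also called 0 of 82. DESeq2 called 894 genes over the whole table. edgeR and limma-voom called 0 of all 14298 genes, so their 0 of 82 adds no information about the members. The smallest adjusted p of any member was 0.280 (limma).

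The differences that were measured were small and mostly downward. The log2 fold change, knockout minus control on the log2(CPM + 1) scale, was negative for 72 members and positive for 10, with a median of -0.16 against -0.02 over all genes. By complex the median was -0.10 for complex I, -0.28 for complex II, -0.23 for complex III, -0.27 for cytochrome c, -0.17 for complex IV and -0.18 for complex V. The 95% interval held 0 for all 82 genes. As ratios of CPM + 1, its median bounds put knockouts at 0.652 to 1.28 times controls. The widest bounds over all members were 0.466 and 1.82 times. That of 1.82 was for Ndufa4l2, at 3.69 to 7.49 CPM, where the added 1 brings the ratio nearer to 1. Changes up to the widest bounds thus lie inside the intervals of some members.

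The downward median rested on control library S591. It held the highest value of all 6 libraries in 75 of 82 members, where 17.3% of all genes had their highest value there. Its level was a median of 1.34 times the next highest library over the members and at least 1.5 times in 20 of them. Without S591 the median log2 fold change was 0.08, with 67 members positive and 15 negative, and 0 of 82 had an adjusted p under 0.05 (limma), where 4.69% of all genes (671) did. One member, Ndufb10, then had an unadjusted p under 0.05 in the upward direction (adjusted p = 0.206, limma), against 10.6% of all genes, and 0 of 82 in the downward direction, against 13.5%.

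Across libraries most members moved together. Relative to each gene's own mean over 6 libraries, the mean deviation of the 82 genes on the log2(CPM + 1) scale was 0.09 in S595, -0.19 in S598 and -0.12 in S599 among knockouts, against 0.50 in S591, -0.24 in S592 and -0.05 in S594 among controls. The group means were -0.07 ± 0.15 in knockout and 0.07 ± 0.39 in control arches (SD, n = 3 each), so the controls spread more widely than the groups differed. Summed over the members, the level was 8195, 6615 and 7218 CPM in knockout arches, against 11874, 6410 and 7402 CPM in control arches. S591 was the highest library of all and S592, also a control, the lowest. The members took 0.802%, 0.681% and 0.742% of the reads in knockout libraries, against 1.13%, 0.631% and 0.760% in controls.

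**Figure D1:**
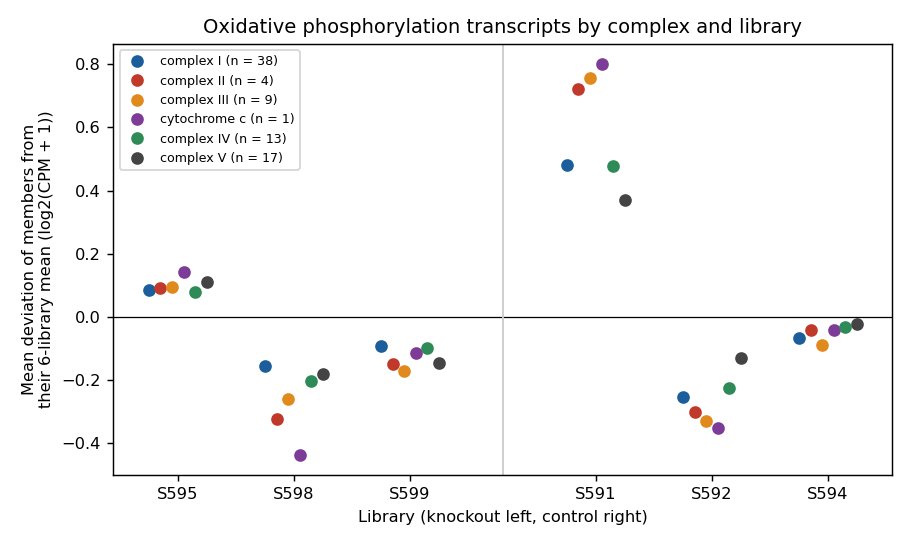
Mean deviation of the members of each complex from their 6-library mean on the log2(CPM + 1) scale (vertical axis), for knockout libraries on the left and control libraries on the right. Each point is the mean over the genes of 1 complex in 1 library. All points of control S591 lie above those of the other libraries, and those of knockout S598 run from -0.16 for complex I to -0.44 for cytochrome c.

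The high values of S591 were not equal across the chain. The mean deviation in that library was 0.76 for complex III, 0.72 for complex II and 0.80 for Cycs, but 0.48 for complex I, 0.48 for complex IV and 0.37 for complex V. The ratio of S591 to the next highest library had a median of 1.61 in complex II, 1.6 in complex III, 1.35 in complex IV, 1.31 in complex I and 1.27 in complex V. These are differences between complexes within 1 library, with no replicate of their own. Per gene the range of the controls was the wider: the highest control was a median of 1.74 times the lowest, while the highest knockout was a median of 1.25 times the lowest. Controls spread more than knockouts in 74 members and less in 8, where 52.7% of all genes had the wider spread in controls. For 47 members the 3 knockout values lay inside the control range, as they did for 14.7% of all genes.

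Promoters of the members were searched because the genes move together from library to library. RefSeq windows of 300 bases, 250 before to 50 after each start on GRCm38.p6, matched 64 of the 82 members with 69 windows. GCATGCGC, the core of the NRF1 site, was found on either strand in 15.9% of the members' windows and in 2.71% of all 32851 windows. CCGGAAG, the ETS and GABP site, was found in 23.2% of the members' windows against 8.86% of all, and AANATGGC, the YY1 site, in 23.2% of the members' against 6.05% of all. TNAAGGTCA, the site of oestrogen-related receptors, was found in 4.35% of the members' windows against 1.28% of all. At least 1 of the 4 was in 55.1% of the members' windows and in 17.2% of all windows. These shares describe letters and not binding, and no base composition was matched.

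The 2 members with the highest and the 2 with the lowest deviation in S591, among those of at least 20 CPM with a window, are printed to show promoters from both ends of the library pattern. They were chosen after their values were seen. Capitals mark a match to 1 of the 4 sites, and each runs 5′ to 3′ on the gene's strand. Sdha (GRCm38.p6 chr13:74350191-74350490, minus strand) has 0 matches in this window, and Uqcrc1 (chr9:108936398-108936697, plus strand) has 2 overlapping matches to the NRF1 core, 1 on each strand. Atp5g1 (chr11:96075582-96075881, minus strand) has 0, and Atp5g3 (chr2:73911277-73911576, minus strand) has 1 match to the site of oestrogen-related receptors, on the reverse strand.
Sdha: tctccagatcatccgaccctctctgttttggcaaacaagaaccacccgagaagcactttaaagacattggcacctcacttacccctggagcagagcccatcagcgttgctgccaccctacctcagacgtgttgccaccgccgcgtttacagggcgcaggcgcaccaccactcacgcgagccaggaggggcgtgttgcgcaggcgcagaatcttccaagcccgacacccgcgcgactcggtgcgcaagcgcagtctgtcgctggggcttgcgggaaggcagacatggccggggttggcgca
Uqcrc1: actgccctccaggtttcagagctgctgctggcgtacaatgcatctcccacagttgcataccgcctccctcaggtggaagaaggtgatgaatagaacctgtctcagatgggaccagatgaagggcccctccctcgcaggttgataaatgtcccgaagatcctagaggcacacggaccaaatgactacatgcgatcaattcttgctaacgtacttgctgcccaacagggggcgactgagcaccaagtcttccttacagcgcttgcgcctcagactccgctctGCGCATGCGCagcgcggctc
Atp5g1: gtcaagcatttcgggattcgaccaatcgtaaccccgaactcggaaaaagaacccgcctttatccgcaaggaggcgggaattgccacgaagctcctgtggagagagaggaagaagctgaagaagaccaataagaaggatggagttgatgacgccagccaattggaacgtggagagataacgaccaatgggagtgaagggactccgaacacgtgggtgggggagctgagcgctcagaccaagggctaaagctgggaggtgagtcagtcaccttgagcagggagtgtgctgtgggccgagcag
Atp5g3: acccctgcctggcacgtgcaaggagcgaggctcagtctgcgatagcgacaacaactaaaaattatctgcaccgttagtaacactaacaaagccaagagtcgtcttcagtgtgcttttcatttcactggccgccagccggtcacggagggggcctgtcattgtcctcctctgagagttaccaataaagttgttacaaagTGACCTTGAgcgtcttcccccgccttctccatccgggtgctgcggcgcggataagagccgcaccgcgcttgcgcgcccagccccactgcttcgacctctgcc
Uqcrc1, a core protein of complex III, measured 162, 104 and 134 CPM in knockout arches, against 283, 108 and 145 CPM in control arches, and S591 was 1.75 times the next highest library. Of the pair with high values in S591, 1 has a match in its window and 1 has none, and the same holds for the pair with low values.

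In complex I, the NADH dehydrogenase, S591 was the highest library for 36 of 38 genes, the subunits that carry electrons among them. Ndufv1, the flavoprotein that oxidises NADH, had 96.7, 76.6 and 91.3 CPM in knockout arches, against 171, 71.8 and 92.7 CPM in control arches. Ndufs1, the large iron-sulphur subunit beside it, had 123, 95.6 and 124 CPM in knockout arches, against 196, 93.7 and 91.0 CPM in control arches. In both genes S591 was far above the other libraries, 1.77 and 1.58 times the next highest. Of the other 2 controls, those of Ndufv1 overlapped the knockouts and those of Ndufs1 lay below all 3. Their log2 fold changes were -0.25 (95% interval -0.92 to 0.42, adjusted p = 0.674, limma) and -0.06 (-0.73 to 0.60, adjusted p = 0.923), and without S591 they were 0.10 and 0.30. Ndufv2, the smaller iron-sulphur subunit of the NADH module, had 92.0, 76.3 and 85.3 CPM in knockout arches, against 124, 73.8 and 75.5 CPM in control arches, and its log2 fold change was -0.07 (-0.54 to 0.40).

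The subunits of the arm that leads to ubiquinone also had their highest value in S591. Ndufs3, a core subunit of this arm, measured 64.7, 62.9 and 66.0 CPM in knockout arches, against 97.5, 55.6 and 61.7 CPM in control arches. Ndufs7, an iron-sulphur subunit at the ubiquinone site, measured 43.7, 38.3 and 37.4 CPM in knockout arches, against 54.8, 33.7 and 37.2 CPM in control arches, and Ndufs8, which holds the clusters before it, measured 44.4, 34.6 and 36.1 CPM in knockout arches, against 54.1, 32.8 and 43.0 CPM in control arches. For these 3 genes S591 was again the highest value and S592 the lowest, with every knockout library between them. Their log2 fold changes were -0.10, -0.04 and -0.15, with adjusted p-values of 0.805, 0.916 and 0.701 (limma).

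Among the accessory subunits of complex I, Ndufs5 had the smallest p and the most negative log2 fold change of all members. Ndufs5, a subunit on the intermembrane side, measured 30.1, 21.5 and 25.6 CPM in knockout arches, against 44.3, 26.0 and 38.5 CPM in control arches. The highest knockout value lay above the lowest control, so the groups overlapped. Its log2 fold change was -0.46 (standard error 0.21, 95% interval -0.96 to 0.04, adjusted p = 0.280, limma) and -0.30 without S591. Ndufa13, a membrane arm subunit also studied in cell death, measured 64.4, 56.8 and 45.7 CPM in knockout arches, against 69.7, 59.9 and 63.7 CPM in control arches, and its log2 fold change was -0.22 (adjusted p = 0.427, limma). Ndufa7, an accessory subunit of the matrix arm, measured 41.5, 39.2 and 34.5 CPM in knockout arches, against 54.3, 38.6 and 42.5 CPM in control arches, and its log2 fold change was -0.22 (adjusted p = 0.458, limma). In Ndufa13 the knockout library S595 was above 2 of the 3 controls, and in Ndufa7 above 1 of them.

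The pair Ndufa4 and Ndufa4l2 differed in how they followed the libraries. Ndufa4, first described in complex I and later assigned to complex IV, measured 143, 119 and 123 CPM in knockout arches, against 209.9, 96.5 and 125 CPM in control arches. Ndufa4l2, its paralogue known as a gene induced by low oxygen, measured 7.08, 4.39 and 6.68 CPM in knockout arches, against 4.35, 3.69 and 7.49 CPM in control arches. In Ndufa4 the control S591 was 1.47 times the next highest library, while in Ndufa4l2 it was below every library but S592. Ndufa4l2 had the most positive log2 fold change of the members, 0.22 (-0.43 to 0.87, adjusted p = 0.710, limma), with overlapping groups, and that of Ndufa4 was -0.09 (-0.69 to 0.51). The other complex I members that are plotted had log2 fold changes between -0.21 and 0.07 and adjusted p-values up to 0.981. Ndufb4 and Ndufb4c are near-identical copies, so their separate levels are uncertain.

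Complex II, the succinate dehydrogenase that also works in the tricarboxylic acid cycle, is encoded in the nucleus alone. Sdha, its flavoprotein, measured 358, 250.2 and 289 CPM in knockout arches, against 656, 264 and 289.7 CPM in control arches. S591 was 1.83 times the next highest library, the largest such ratio of the 82 genes, and the other 2 controls lay inside the knockout range. Sdha averaged 299 ± 54.7 CPM in knockout arches and 403 ± 219 CPM in control arches (SD, n = 3 each), and its log2 fold change was -0.32 (-1.09 to 0.46, adjusted p = 0.639, limma) and 0.10 without S591. Sdhb, the iron-sulphur subunit, measured 106, 84.6 and 94.0 CPM in knockout arches, against 170.5, 87.5 and 98.3 CPM in control arches. The membrane anchor Sdhd measured 105, 76.1 and 92.1 CPM in knockout arches, against 169, 77.2 and 104 CPM in control arches, and the other anchor Sdhc measured 108, 83.7 and 88.2 CPM in knockout arches, against 132, 80.8 and 101 CPM in control arches. In each of these genes S591 was highest and the rest of the controls overlapped the knockouts. Their log2 fold changes were -0.26, -0.29 and -0.15 with all libraries and 0.03, 0.01 and 0.04 without S591.

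In complex III, the cytochrome bc1 complex, S591 was the highest library for all 9 genes. Cyc1, which encodes cytochrome c1, measured 115, 90.3 and 106 CPM in knockout arches, against 198, 74.5 and 105 CPM in control arches. The Rieske iron-sulphur protein Uqcrfs1 measured 78.7, 65.4 and 76.5 CPM in knockout arches, against 142, 57.6 and 69.6 CPM in control arches. The core protein Uqcrc2 measured 177, 143 and 169 CPM in knockout arches, against 315, 139.7 and 157 CPM in control arches. In all 3 genes S592 was lowest, and the knockout libraries lay within the control range. Log2 fold changes were -0.16 (-0.90 to 0.57) for Cyc1, -0.17 (-0.87 to 0.53) for Uqcrfs1 and -0.23 (-0.89 to 0.44) for Uqcrc2. Without S591 they were 0.22, 0.21 and 0.13.

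The smallest p-values of complex III were those of 3 small accessory subunits. Uqcrq measured 55.8, 41.7 and 34.8 CPM in knockout arches, against 78.8, 41.9 and 48.9 CPM in control arches. Uqcr10 measured 56.4, 39.0 and 31.7 CPM in knockout arches, against 77.2, 38.6 and 42.8 CPM in control arches, and Uqcr11 measured 47.9, 40.1 and 39.2 CPM in knockout arches, against 76.5, 35.7 and 47.5 CPM in control arches. In Uqcrq and Uqcr10 the knockout library S599 was the lowest of all 6, yet S595 lay above 2 of the 3 controls. Their log2 fold changes were -0.32, -0.28 and -0.26, with adjusted p-values of 0.522, 0.635 and 0.613 (limma). Cycs, the soluble carrier between complexes III and IV whose release from mitochondria also triggers apoptosis, measured 90.0, 59.8 and 75.1 CPM in knockout arches, against 143, 63.6 and 79.1 CPM in control arches. Its log2 fold change was -0.27 (-0.95 to 0.40, adjusted p = 0.643, limma), and 0.06 without S591.

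In complex IV, the cytochrome c oxidase, the common isoforms named here were highest in S591, and the isoforms Cox4i2 and Cox6b2 were not. These had few reads, 16 to 28 per library for Cox4i2 and 8 to 18 for Cox6b2. The excluded isoforms Cox7a1 and Cox8b, given below with brown fat markers, were highest in S591. Cox4i1, the common isoform of the largest nuclear subunit, measured 219.8, 174 and 198 CPM in knockout arches, against 317, 178 and 213 CPM in control arches. Cox4i2, its isoform known from lung and from low oxygen, measured 3.27, 2.75 and 4.17 CPM in knockout arches, against 2.93, 3.15 and 3.28 CPM in control arches. The first had its highest value in S591, while for Cox4i2 that library was below 4 of the others. Log2 fold changes were -0.22 (-0.71 to 0.26) and 0.08 (-0.39 to 0.55). Cox6b1, the common isoform of a subunit facing cytochrome c, measured 138, 100.4 and 113 CPM in knockout arches, against 207, 107 and 124 CPM in control arches. Its testis isoform Cox6b2 measured 1.75, 1.78 and 1.34 CPM in knockout arches, against 1.69, 1.27 and 1.8 CPM in control arches, close to the low-value filter of 1 CPM. Log2 fold changes were -0.27 and 0.02, with adjusted p-values of 0.573 and 0.964 (limma).

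The remaining named subunits of complex IV overlapped between groups as well. Cox5a, a subunit on the matrix side, measured 81.2, 58.5 and 77.0 CPM in knockout arches, against 138, 64.0 and 77.6 CPM in control arches, and Cox5b, a zinc-binding subunit there, measured 81.0, 65.4 and 67.1 CPM in knockout arches, against 119, 54.8 and 72.0 CPM in control arches. For both genes S591 was highest and the other 2 controls overlapped the knockouts. Log2 fold changes were -0.30 (-0.93 to 0.34) and -0.13 (-0.74 to 0.47). Cox7a2l, known for joining complexes III and IV into supercomplexes, measured 105, 90.2 and 116 CPM in knockout arches, against 127, 119 and 114 CPM in control arches. It was the complex IV member with the smallest p, with a log2 fold change of -0.21 (-0.48 to 0.05, adjusted p = 0.344, limma) and -0.17 without S591. Here the control values lay close together and S591 was only 1.06 times the next highest library.

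In complex V, S591 stood well above the other libraries for the catalytic head genes, while for the genes of the membrane ring it was at most 1.08 times the next highest. Atp5b, the catalytic beta subunit, measured 869.9, 659 and 796 CPM in knockout arches, against 1436, 596 and 778 CPM in control arches. Atp5a1, the alpha subunit, measured 593.7, 482 and 561 CPM in knockout arches, against 908, 475 and 542 CPM in control arches, and Atp5c1, the gamma subunit of the rotating stalk, measured 160.0, 146 and 156 CPM in knockout arches, against 207, 143 and 145 CPM in control arches. S591 was the highest library for each, by 1.65, 1.53 and 1.30 times. The other 2 controls overlapped the knockouts in Atp5b and Atp5a1 and lay just below them in Atp5c1. Atp5b averaged 775 ± 107 CPM in knockout arches and 937 ± 442 CPM in control arches (SD, n = 3 each). Log2 fold changes were -0.18 (-0.90 to 0.54), -0.18 (-0.74 to 0.38) and -0.08 (-0.44 to 0.28). Without S591 they were 0.18, 0.10 and 0.10.

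The genes Atp5g1, Atp5g2 and Atp5g3 encode the same mature c subunit, of which the rotating ring is built, behind different import sequences. Atp5g1 measured 46.0, 33.4 and 30.7 CPM in knockout arches, against 37.8, 48.2 and 42.8 CPM in control arches. Atp5g2 measured 91.5, 74.3 and 75.4 CPM in knockout arches, against 98.9, 85.4 and 90.0 CPM in control arches, and Atp5g3 measured 136, 131 and 117 CPM in knockout arches, against 123, 115 and 126 CPM in control arches. In Atp5g1 and Atp5g3 the library S591 was not the highest, and in Atp5g2 it was only 1.08 times the next. Their log2 fold changes were -0.23 (-0.63 to 0.16), -0.19 (-0.46 to 0.08) and 0.07 (-0.16 to 0.30), with adjusted p-values of 0.489, 0.408 and 0.732 (limma). Atp5g1 was the member whose log2 fold change without S591 was the most negative, -0.32.

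With Atp5g2, a pair of other small subunits had the smallest p-values of complex V. Atp5mpl, a small membrane subunit, measured 46.6, 38.3 and 40.3 CPM in knockout arches, against 54.5, 49.8 and 43.7 CPM in control arches. Atp5e, the epsilon subunit of the stalk, measured 90.3, 62.6 and 63.0 CPM in knockout arches, against 114, 75.6 and 84.7 CPM in control arches. In both genes the knockout S595 lay above the lowest control and the other 2 knockouts below all controls. Log2 fold changes were -0.23 (-0.52 to 0.06, adjusted p = 0.345, limma) and -0.34 (-0.80 to 0.12, adjusted p = 0.375), and -0.16 and -0.17 without S591. The inhibitor of the synthase, Atpif1, is no member by its symbol and measured 44.8, 38.0 and 36.7 CPM in knockout arches, against 41.3, 47.3 and 52.1 CPM in control arches, with a log2 fold change of -0.23 (adjusted p = 0.367, limma).

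**Figure D2:**
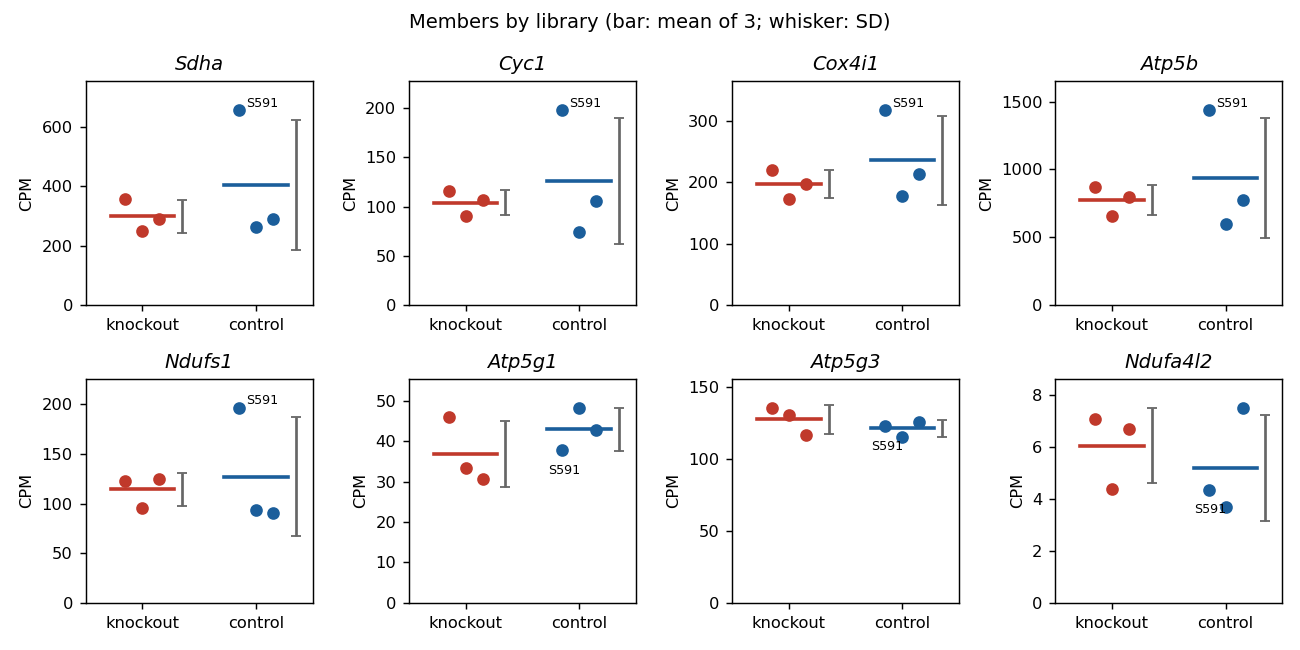
CPM of 8 members in each library (points), with knockout left and control right; the bar is the mean of 3 libraries and the whisker the SD. In Sdha, Cyc1, Cox4i1, Atp5b and Ndufs1 the control S591 lies above all other libraries, while in Atp5g1, Atp5g3 and Ndufa4l2 it lies among them.

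**Figure D3:**
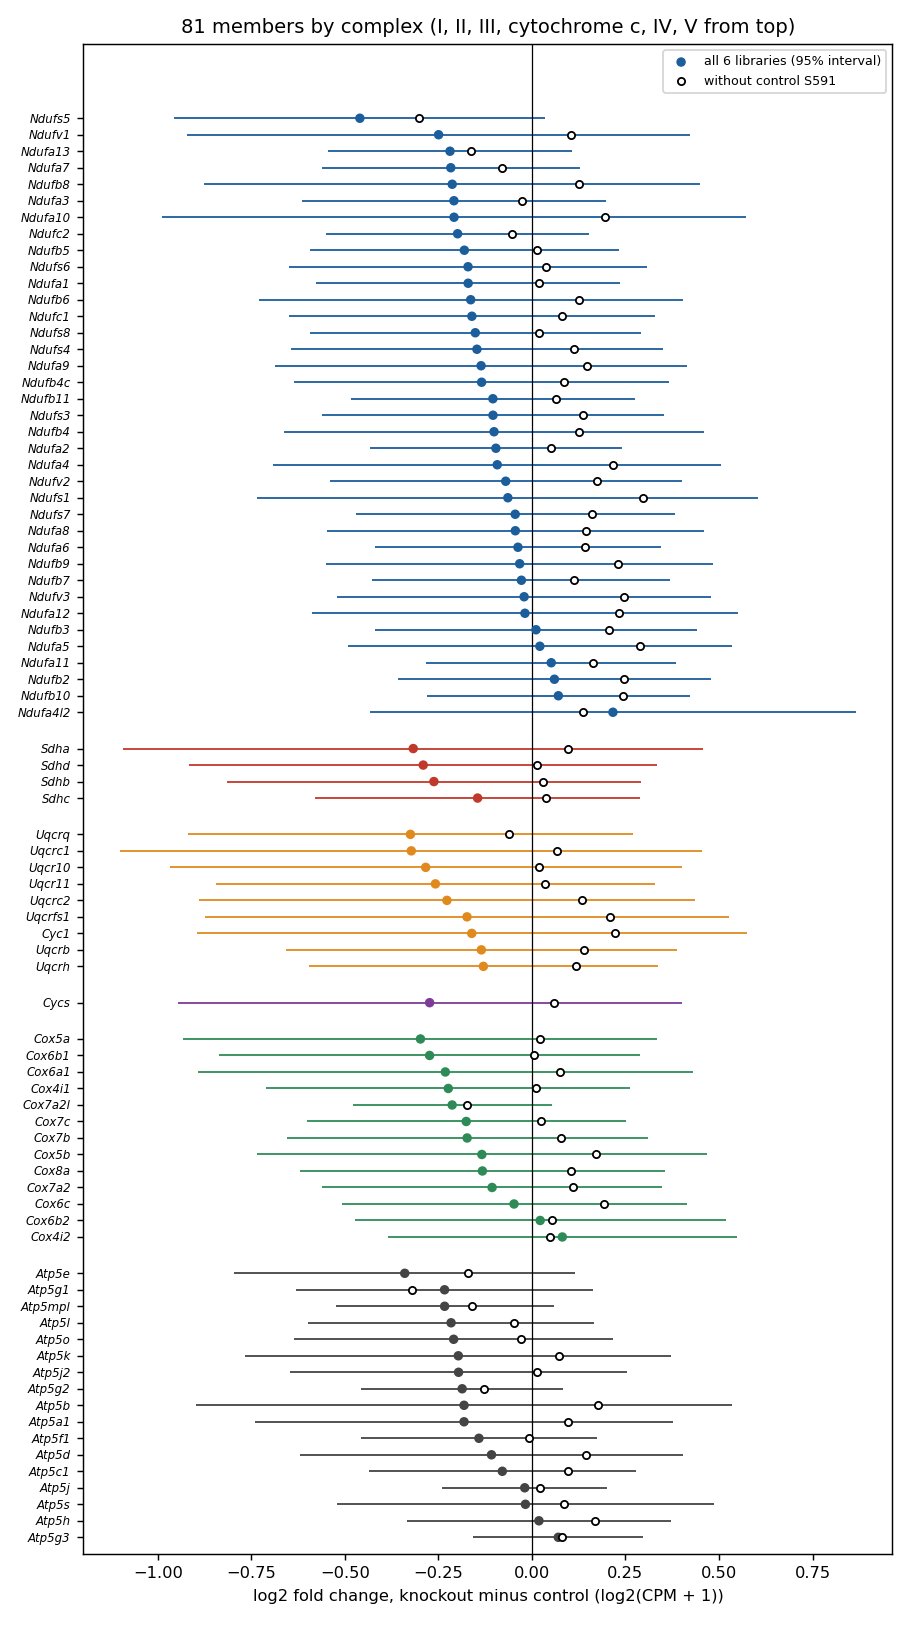
Log2 fold change, knockout minus control on the log2(CPM + 1) scale, of 81 members grouped by complex from I at the top to V at the bottom. Filled points are the estimates from all 6 libraries with their 95% intervals, which all cross 0, and open points the estimates without control S591, of which 67 lie above 0.

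The 7 members in which S591 was not the highest library were Ndufa4l2, Ndufa11, Cox4i2, Cox6b2, Atp5g1, Atp5g3 and Atp5s. They comprise the low-oxygen and testis isoforms named above, 2 of the c-ring genes, the complex I membrane subunit Ndufa11, and Atp5s, a factor once counted with complex V. The library with the highest value was S595 in 3 of them, S594 in 2, S592 in 1 and S599 in 1. Ndufa11 measured 52.9, 43.7 and 43.2 CPM in knockout arches, against 52.3, 44.6 and 38.3 CPM in control arches, so S591 and the knockout S595 were nearly level there. The lowest library over the 82 genes was the control S592 for 43, the knockouts S598 for 21 and S599 for 12, and the control S594 for 6.

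Levels within the chain are compared per length, as mean CPM over 6 libraries per kilobase of annotated exon. The highest were Cox6a1 at 228, Atp5b at 202, Atp5a1 at 189, Cox6b1 at 186 and Cox8a at 179.8 CPM per kilobase. The lowest were Cox6b2 at 1.45, Atp5s at 3.85, Cox4i2 at 4.14, Ndufb4 at 4.54 and Ndufa4l2 at 5.13. The place of Ndufb4 is uncertain, since its near-identical copy Ndufb4c was at 73.1 and their separate levels are uncertain. The median per kilobase was 34.6 in complex I, 66.1 in complex II, 71.9 in complex III, 77.5 in complex IV and 46.5 in complex V. The common isoform Cox4i1 was at 139.7 CPM per kilobase, far above its isoform Cox4i2. A member had between 8 and 8080 reads in a library, and 77 of 82 had at least 100 reads in every library.

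The 13 protein genes of mitochondrial DNA, whose products form the cores of complexes I, III, IV and V, were also highest in S591. With all libraries their groups overlapped. Their summed level was 69169, 69141 and 70355 CPM in knockout arches, against 98979, 50289 and 47543 CPM in control arches. The knockouts lay close together, below S591 and above the other 2 controls. All 13 had a positive log2 fold change, median 0.17, and 0 of 13 passed the test, 0 also at an unadjusted p under 0.05 (smallest adjusted p = 0.756, limma). The smallest p-values were those of mt-Nd3, with a log2 fold change of 0.21, and mt-Nd6, with 0.18, both complex I subunits. S591 was the highest library for all 13. Without S591 the median was 0.50 and again 0 of 13 passed (smallest adjusted p = 0.0552, limma), beside 0.08 for the nuclear genes. Leaving out the highest library, a control, raises each of the 13 log2 fold changes. That library was singled out after its values were seen.

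The genes that feed the chain were high in S591 too, with a mean deviation of 0.87 for the tricarboxylic acid cycle and 0.97 for fatty acid oxidation on the log2(CPM + 1) scale, beside 0.50 for the chain. Of the tricarboxylic acid cycle, 13 of 13 genes had their highest value there, and of fatty acid oxidation 16 of 17. The summed level of the cycle was 2627, 1912 and 2495 CPM in knockout arches, against 4878, 1788 and 2218 CPM in control arches. That of fatty acid oxidation was 2436, 1717 and 2280 CPM in knockout arches, against 4872, 1612 and 2170 CPM in control arches. In both lists S591 was highest and S592 lowest, as in the chain. None of the genes passed the test with all libraries (limma). At an unadjusted p under 0.05, 0 of 13 genes of the cycle and 1 of 17 of fatty acid oxidation, Cpt1a, were lower in knockout arches and none was higher. Of all genes 12.0% were lower and 8.04% higher at that level. Without S591, 0 of 13 and 1 of 17 passed the adjusted threshold (limma), where 4.69% of all genes did. The log2 fold change of Cpt1a was then -0.53, against the direction of the median of its list. The medians of -0.19 for the cycle and -0.22 for fatty acid oxidation became 0.24 and 0.19 without S591. The smallest p-values were those of the cycle enzymes Suclg2 (log2 fold change 0.28, adjusted p = 0.388, limma) and Mdh2 (-0.40), and of Cpt1a (-0.49, adjusted p = 0.107) and Slc25a20 (-0.59), which bring fatty acids into mitochondria.

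Glycolysis, the pathway that makes ATP outside mitochondria, had its lowest values in knockouts S598 and S599 instead. Its summed level was 3759, 2877 and 3000.5 CPM in knockout arches, against 4693, 3713 and 4286 CPM in control arches. Of 15 genes, 0 passed the adjusted threshold and 9 were lower in knockout arches at an unadjusted p under 0.05, beside the 12.0% of all genes given above, with 1, Pfkm, higher. The median log2 fold change was -0.35 with all libraries and -0.29 without S591. Ldha, which makes lactate from pyruvate, measured 327, 232 and 257 CPM in knockout arches, against 446, 383 and 487 CPM in control arches, with a log2 fold change of -0.69 (adjusted p = 0.112, limma) and -0.68 without S591. Pgam1, a mutase of its later steps, measured 188, 160.5 and 174 CPM in knockout arches, against 262, 219 and 242 CPM in control arches, with a log2 fold change of -0.47 (adjusted p = 0.118). In both genes all knockout libraries lay below all controls. Macrophage markers moved in the same direction: 11 of 12 were listed, all 11 lower in knockout arches at an unadjusted p under 0.05, and their sum ran from 2690 to 6975 CPM in knockout arches and from 6838 to 11479 CPM in control arches. Their part in the glycolysis values was not tested.

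None of the genes that build or regulate the chain passed the adjusted threshold. At an unadjusted p under 0.05 (limma), 12.0% of all genes were lower in knockout arches and 8.04% were higher. At that level 1 of 45 assembly factors and 3 of 78 mitochondrial ribosomal genes were lower. Of carrier or import genes 2 of 14 were lower and of regulators 0 of 13, and no gene of these lists was higher. Of 47 assembly factors 45 were listed, with a median log2 fold change of -0.09, and Pet100 and Uqcc2, which help to assemble complexes IV and III, had the smallest p-values (-0.44 and -0.32, smallest adjusted p = 0.176, limma). The 78 mitochondrial ribosomal protein genes had a median of -0.11, led by Mrpl19 (-0.41) and Mrps12 (-0.61), smallest adjusted p = 0.159 (limma). Of 15 carrier and import genes 14 were listed, with a median of -0.15, led by the import channel gene Timm23 (-0.42) and the ADP/ATP carrier gene Slc25a5 (-0.31), smallest adjusted p = 0.122 (limma). The 13 regulators of mitochondrial biogenesis had a median of 0.06, with Pprc1 (-0.40), a coactivator, and Yy1 (0.20), a transcription factor, at the smallest p-values. On recovered reads, edgeR and limma-voom called 0 genes of every pathway list, and 0 of all 14298 genes. DESeq2 called 4 of 15 glycolysis genes, 1 of 17 of fatty acid oxidation and 0 of the other pathway lists, beside 894 of all 14298 genes. Nrf1, a factor known to bind promoters of respiratory chain genes, measured 23.7, 23.8 and 20.8 CPM in knockout arches, against 20.3, 24.1 and 22.0 CPM in control arches. Esrra, a nuclear receptor of the same programme, measured 25.9, 18.8 and 21.5 CPM in knockout arches, against 33.5, 21.3 and 26.3 CPM in control arches, and its coactivator Ppargc1a measured 8.29, 10.5 and 10.1 CPM in knockout arches, against 13.6, 7.04 and 7.87 CPM in control arches. Esrra and Ppargc1a were highest in S591, while Nrf1 was lowest there.

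The summed level of brown fat markers, of which Ucp1 was the largest part, moved with the chain from library to library. All 9 genes of the list were in the table, and their sum was 759, 486 and 618 CPM in knockout arches, against 1549, 444 and 651 CPM in control arches. The order of the 6 libraries was that of the summed respiratory chain genes, with S591 highest and S592 lowest. Ucp1, the uncoupling protein of brown fat, measured 298, 138 and 249 CPM in knockout arches, against 815, 146 and 260.3 CPM in control arches. Cidea, a lipid droplet gene of that tissue, measured 108, 55.0 and 93.5 CPM in knockout arches, against 256, 48.5 and 95.4 CPM in control arches. S591 held more of both than any other library, and the other 5 libraries overlapped between groups. The excluded isoforms behaved alike: Cox7a1 measured 18.9, 13.5 and 18.8 CPM in knockout arches, against 56.2, 9.46 and 16.9 CPM in control arches, and Cox8b measured 55.2, 41.6 and 44.7 CPM in knockout arches, against 132, 20.1 and 49.4 CPM in control arches. None of the 9 passed the test with all libraries (smallest adjusted p = 0.12, limma, for Prdm16, with Elovl3 next at 0.233). At an unadjusted p under 0.05, 1 was lower and 1 higher, where 12.0% and 8.04% of all genes were. S591 was highest for 7 of them, as it was for 17.3% of all genes. Without S591 the median log2 fold change of the list moved to 0.31, against -0.35 with all libraries. Then 1 of 9 passed, where 4.69% of all genes did. It was Prdm16, a transcription factor of brown fat, with a log2 fold change of 0.72 (adjusted p = 0.0337, limma). Prdm16 was also the 1 marker of the list that DESeq2 called with all libraries (adjusted p = 0.0144), beside 894 of all 14298 genes. The other count tests, edgeR and limma-voom, called 0 genes of the list and of the whole table. Prdm16 measured 118, 117 and 106 CPM in knockout arches, against 91.1, 74.8 and 63.4 CPM in control arches, with every knockout above every control. It thus did not share the high value of S591. Dio2 did not share it either, with 127, 98.9 and 79.2 CPM in knockout arches, against 121, 124 and 139 CPM in control arches. There S591 was the lowest of the controls. Elovl3 was at 0.0482 CPM in S598, the value of a gene without a read there. The part of these markers in the members' values was not tested.

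Other lists give the range of cell types an arch sample can hold. White fat markers, 10 of 10 listed, summed to 2437, 1751 and 2020 CPM in knockout arches, against 3864, 1478 and 2589 CPM in control arches. As for brown fat markers, S591 was highest and S592 lowest, but here S594 lay above S595. Cardiac muscle markers, 7 of 9 listed, summed to 155, 142 and 101 CPM in knockout arches, against 141, 79.7 and 52.2 CPM in control arches. In every library but S591 most of that sum was Ryr2, a calcium channel gene that is also known from other tissues. Ryr2 measured 105, 107 and 76.4 CPM in knockout arches, against 61.2, 60.7 and 38.0 CPM in control arches. The other 6, a split made after their values were seen, summed to 50.2, 35.2 and 24.5 CPM in knockout arches, against 79.8, 19.0 and 14.2 CPM in control arches. S591 was the highest library for 4 of the 7 (Myh6, Tnnt2, Myl4 and Myl7), and the mean deviation of the list was 0.99 in S591 and 0.61 in knockout S595, the next highest. As a sum, the cardiac markers without Ryr2 were thus highest in S591, at low levels. Among them Actc1 was highest in S595 and Tnni3 in S599. Of 11 skeletal muscle markers only Myl1 was listed. Fibroblast markers, 10 of 10 listed, summed to between 8986 and 12116 CPM in knockout arches and between 12391 and 19868 CPM in control arches. Thymocyte markers, 9 of 11 listed, summed to between 24.6 and 205 CPM in knockout arches and between 28.8 and 37.4 CPM in control arches. Airway epithelium markers, 6 of 10 listed, summed to between 66.1 and 88.4 CPM in knockout arches and between 3.38 and 10.8 CPM in control arches, and 2 of them, Scgb1a1 and Bpifa1, passed the test. The part of these cell types in the members' values was not tested.

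**Figure D4:**
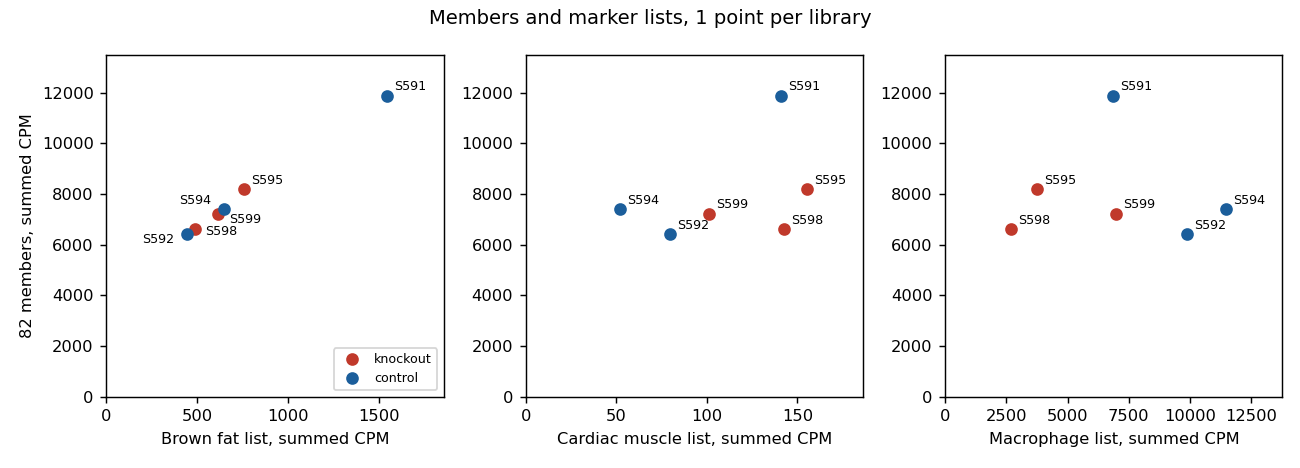
Summed CPM of the 82 members (vertical axis) against the summed CPM of brown fat, cardiac muscle and macrophage markers (horizontal axes), 1 point per library, with knockout and control in 2 colours. Library S591 is highest for members and brown fat markers together, while for macrophage markers it lies within the range of the other libraries. For cardiac muscle markers it also does so as a sum, which is mostly Ryr2 in every library but S591. The sum of the other 6 cardiac markers, a split made after their values were seen, is highest in S591. Among these Actc1 and Tnni3 are not highest there.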

How the data were processed

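Aortic arches were measured by polyA RNA sequencing in 3 knockout and 3 control libraries after TruSeq library preparation, per the labels' protocols. Per the submitters' processing notes, build NCBIM37, Bowtie 0.12.7, RSEM 1.16, cutadapt 1.6.1, CASAVA 1.8, edgeR and limma were used, with no roles stated; whether counting used strand was not given in those notes or the labels. The authors deposited a normalised signal, 1 value per gene and library. Checked on the values, it equals (reads + 0.5) in CPM of a scaled library size, and whole reads were recovered from 100% of values at a tolerance of 0.01. No molecular identifiers are stated, so the precision that depth gives covers counting error only. Columns name genotype and library but no individual animal.

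Symbols were matched for 13828 of 14298 identifiers from a GENCODE M21 table (470 unmatched), which also gave exon lengths; promoters came from RefSeq GRCm38.p6. The comparison used limma 3.58.1 (R 4.3.3) on log2(CPM + 1) with an intensity trend, all 6 libraries, genotype as the only factor, at least 1 CPM in 3 libraries, two-sided p-values and Benjamini-Hochberg adjustment over the whole table. It was tested on simulated counts, drawn independently for each gene and with larger changes than those measured in the members. That test therefore does not gauge the power for the members. Alternatives used edgeR 4.0.16, DESeq2 1.42.0 and limma-voom on recovered reads, other scalings, pseudocounts, filters and variance models, and libraries left out. Members and lists were chosen with earlier results of these data known, and scores over members got no test. Named were 38 members: in each complex the 3 with the smallest p and the most abundant, the redox and catalytic subunits, the alternative isoforms and the extremes. Of these, 1 is not reported here, though counts, medians and sums include it. Uqcrc1, Ndufa11, Ndufb10 and the tissue isoforms Cox7a1 and Cox8b were named after their values were seen. Of the pathway lists, the 2 genes with the smallest p are named; marker genes are named where a result about the members bears on them, and glycolysis gene Pfkm and 3 biogenesis regulators were named after their values were seen.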

Additional observations from a re-analysis of the deposited data

How the results depend on the processing

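The count of 0 members called held under every alternative run: pseudocounts of 0.5 and 0.1, no filter or a filter of 5 CPM (80 members tested), quantile, upper quartile and equal-total scaling, no intensity trend, robust variance, edgeR, DESeq2, limma-voom, each library left out, S598 and S599 left out together, and an adjusted p of 0.1. Over the whole table, at an adjusted p under 0.05, DESeq2 called 894 genes and the limma fit without S591 called 671. The other alternatives at that threshold called at most 6 genes of the whole table, so their counts of 0 members say little. At an unadjusted p under 0.05, edgeR, DESeq2 and limma-voom also gave 0 members. Leaving out S595, S592, S594 or S599 gave 6, 3, 1 and 1 of 82 members lower in knockout arches at that level, where 11.7%, 9.41%, 7.25% and 11.3% of all genes were.

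The sign of the differences is less stable than the count. The median over all members ranged from -0.31 (without S592) to 0.08 (without S591), and was 0.0045 with 43 members positive when S598 and S599 were left out, which leaves 1 knockout library assumed to vary like the others. By complex, leaving out 1 library gave medians from -0.26 to 0.13 in complex I, -0.50 to 0.03 in II, -0.47 to 0.12 in III, -0.52 to 0.06 for cytochrome c, -0.31 to 0.05 in IV and -0.27 to 0.02 in V. Quantile, upper quartile and equal-total scaling gave medians of -0.12, -0.13 and -0.13, and moved the median of all genes by at most 0.05.

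Of the 38 named members 24 changed sign without S591; without S598, S592, S595 or S599 the numbers were 3, 1, 1 and 1. Log2 fold changes with 1 library left out ranged as follows, lowest to highest: Atp5a1 -0.37 to 0.10, Atp5b -0.46 to 0.18, Atp5c1 -0.17 to 0.10, Cox4i1 -0.41 to 0.010, Cox4i2 -0.042 to 0.19, Cox5a -0.53 to 0.020, Cox5b -0.38 to 0.17, Cox6b1 -0.47 to 0.0051, Cox6b2 -0.068 to 0.10, Cyc1 -0.48 to 0.22, Cycs -0.52 to 0.059, Ndufa4 -0.34 to 0.22, Ndufs1 -0.26 to 0.30, Ndufs3 -0.26 to 0.14, Ndufs7 -0.18 to 0.16, Ndufs8 -0.33 to 0.020, Ndufv1 -0.52 to 0.10, Ndufv2 -0.20 to 0.17, Sdha -0.56 to 0.10, Sdhb -0.45 to 0.028, Sdhc -0.32 to 0.037, Sdhd -0.55 to 0.013, Uqcr10 -0.51 to 0.019, Uqcr11 -0.50 to 0.034, Uqcrc2 -0.45 to 0.13, Uqcrfs1 -0.43 to 0.21. Without S598 and S599 the sign turned for these members: Atp5e 0.0045, Atp5g1 0.11, Atp5g2 0.0045, Cox5b 0.057, Cycs 0.0061, Ndufa13 0.0026, Ndufa4 0.066, Ndufs1 0.050, Ndufs7 0.091, Ndufs8 0.062, Ndufv2 0.054, Sdhc 0.072, Uqcr10 0.16, Uqcrq 0.033; under quantile scaling Ndufs7 was 0.0042. The cause of these last changes was not tested. No paired analysis was possible because the table's columns carry library numbers and not the replicate numbers of the labels. With 3 libraries a group, the members' intervals reach from 0.466 to 1.82 times the control value, as ratios of CPM + 1.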
